A study of Mus musculus with 3 samples.

Results

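The TNF superfamily comprises the ligands and receptors related to tumour necrosis factor. In SB28, 13 of its 28 receptors (46.4%) and 3 of its 18 ligands (16.7%) were detected. The share was 46.6% over all gene lines and 54.1% over protein-coding ones. Members were taken as every gene symbol in the count tables that starts with Tnfsf or Tnfrsf and a number, together with Tnf, Lta, Ltb, Ltbr, Fas, Fasl, Cd27, Cd40, Cd40lg, Cd70, Ngfr, Eda, Edar, Eda2r and Relt. This gave 46 members of 24421 gene lines. SB28 is a cultured mouse glioblastoma model line on the C57BL/6 background, labelled with brain as its source, and RNA-seq was made from 3 replicate libraries of this single group. No treatment, genotype contrast, passage or control group is given, and nothing says that the replicates were separate cultures, so SDs and p-values measure only how these libraries differ, possibly for technical reasons.

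Ligands of this family are mostly made as trimeric membrane proteins, and proteases can release some of them as soluble factors. Their receptors carry cysteine-rich repeats outside the cell. One class holds a death domain inside the cell, through which caspases or the necroptosis kinases can be engaged, another recruits TRAF adaptors and activates NF-kappaB and MAP kinases, and decoy receptors bind ligand without a signalling tail. In tumours the family is best known for death receptors as targets of cytotoxic lymphocytes, and for the costimulatory members exchanged between antigen-presenting cells and T cells.

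The libraries held 36019009, 28990128 and 32632858 counts assigned to genes in replicates 1, 2 and 3. Levels are given as counts per 1000000 assigned counts (CPM), and detection means that every library reached 1 CPM. A count of 0 allows up to 0.103 CPM in the shallowest library (3 counts, counting error only). Replicate 3 stood apart from the other replicates: 2.01% of 12746 genes differed between replicates 1 and 2 by a chi-square test at an adjusted p under 0.05, against 64.0% between 1 and 3 and 62.9% between 2 and 3. Of the 6 markers of a neural tumour line, Vim, Nes, Sox2 and Cd44 were detected, while Gfap and Olig2, which mark astrocytes and the oligodendrocyte lineage, had 0 counts. None of the 4 T cell, 4 B cell and 7 myeloid markers measured was detected, and the pan-leukocyte gene Ptprc had 12, 4 and 9 counts. Of 5 endothelial markers 2 were detected, Cdh5 (351 ± 42.2 CPM) and Kdr (1.61 ± 0.893). Tek was split between libraries, Pecam1 had 4, 2 and 0 counts, and Cldn5 had 0. Of 5 fibroblast and pericyte markers 3 were detected, Col1a1, Col1a2 and Pdgfrb. Dcn was split and Lum had 1, 2 and 0 counts. In bulk RNA, fewer cells of a type and less RNA per cell cannot be told apart.

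Of the 46 members, 16 (34.8%) were detected, 2 were split between libraries and 28 lay below 1 CPM in all, of which 9 had 0 counts. The share among all gene lines was 46.6%, and among protein-coding ones 54.1%. The median level was 0.242 CPM per kilobase of exon for receptors and 0.00945 for ligands, beside 0.223 for all gene lines and 0.898 for protein-coding ones. Members made up 0.0701%, 0.0705% and 0.0773% of all counts, and Tnfrsf12a alone held 34.8% of the summed member CPM.

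**Figure D1:**
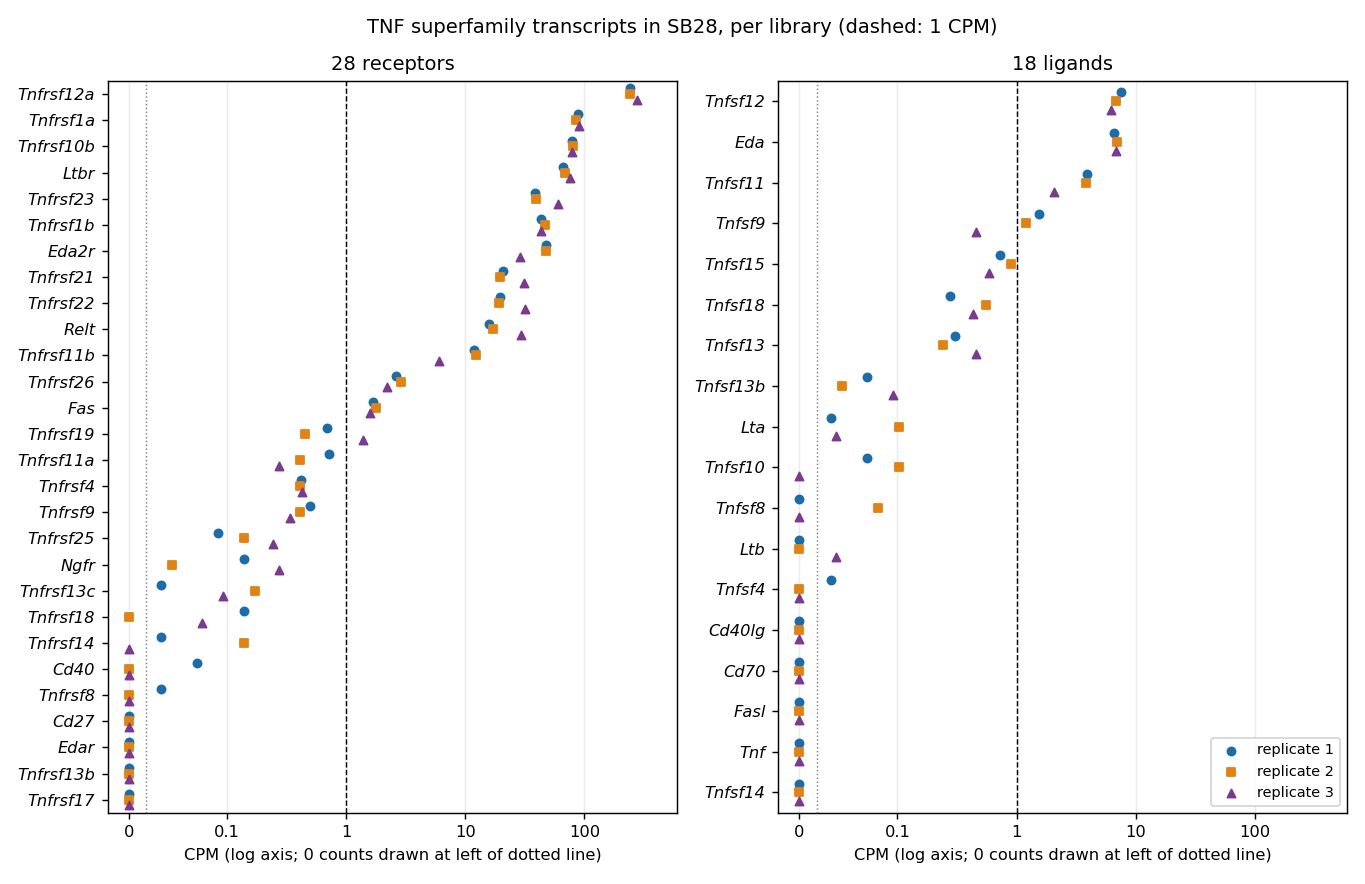
Level of each of the 46 members in each library, in CPM on a log axis, with receptors at left and ligands at right, 1 point per replicate. The dashed line is 1 CPM; 13 receptors and 3 ligands lie to its right in all 3 libraries, and 9 members lie at 0 in all.

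The highest member was Tnfrsf12a, which encodes Fn14, the small receptor of TWEAK, found on injured and proliferating tissue and known from invasive glioma. It stood at 242, 242 and 274 CPM (253 ± 18.6, SD, n = 3), or 131 ± 9.62 CPM per kilobase, above 97.6% of detected genes per kilobase. Replicate 3 was the highest, by 1.14-fold over the mean of the others. It lies on chromosome 17 at 23675445 to 23677468 (GRCm38). Per base of exon it exceeded Tnfrsf1a, the next member, by 3.87-fold (3.67 to 4.12), or by 6.32-fold with the longest transcripts. Its ligand Tnfsf12 (TWEAK) stood at 7.58, 6.83 and 6.16 CPM, the highest ligand per kilobase of exon, though not in CPM in replicates 2 and 3, where Eda was higher. Per base of exon Tnfrsf12a exceeded Tnfsf12 by 28.9-fold (24.98 in the lowest library and 34.8 in the highest), more than the replicates spread. Tnfsf12 shares 48.3% of its exon bases with the joint gene Tnfsfm13, to which 0 counts were assigned, so reads there can be lost as ambiguous. Over exon bases of 1 gene only, the ratio was 14.96, and with the longest transcript of each gene it was 53.8.

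The sequences just before the start sites are shown for 5 members that span the range of levels: the abundant receptors Tnfrsf12a and Ltbr, the RANK receptor and ligand genes Tnfrsf11a and Tnfsf11 at low level, and Tnf, at 0 counts. Each is the 250 bases upstream of the RefSeq start (GRCm38.p6), 5′ to 3′ on the gene's strand, with CG dinucleotides in capitals. They lie on chromosome 17 at 23677450 to 23677699 (minus strand) for Tnfrsf12a, on chromosome 6 at 125313886 to 125314135 (minus) for Ltbr and on chromosome 1 at 105780473 to 105780722 (plus) for Tnfrsf11a. Those of Tnfsf11 and Tnf lie on chromosome 14 at 78308044 to 78308293 and on chromosome 17 at 35202008 to 35202257, both on the minus strand.
Tnfrsf12a: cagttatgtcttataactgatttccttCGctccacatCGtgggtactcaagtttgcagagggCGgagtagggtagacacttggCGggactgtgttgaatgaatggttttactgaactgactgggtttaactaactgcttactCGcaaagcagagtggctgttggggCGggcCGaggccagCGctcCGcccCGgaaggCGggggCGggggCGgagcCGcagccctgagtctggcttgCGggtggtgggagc
Ltbr: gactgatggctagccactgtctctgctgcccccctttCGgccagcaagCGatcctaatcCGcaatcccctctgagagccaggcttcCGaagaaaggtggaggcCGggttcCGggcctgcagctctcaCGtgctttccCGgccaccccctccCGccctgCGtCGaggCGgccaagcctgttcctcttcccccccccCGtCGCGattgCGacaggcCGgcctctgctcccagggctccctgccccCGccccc
Tnfrsf11a: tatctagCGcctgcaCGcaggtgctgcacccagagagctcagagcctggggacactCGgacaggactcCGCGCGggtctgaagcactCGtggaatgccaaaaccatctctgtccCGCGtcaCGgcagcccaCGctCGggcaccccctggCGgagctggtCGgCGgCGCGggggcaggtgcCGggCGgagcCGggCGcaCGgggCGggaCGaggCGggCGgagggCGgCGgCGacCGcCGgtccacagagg
Tnfsf11: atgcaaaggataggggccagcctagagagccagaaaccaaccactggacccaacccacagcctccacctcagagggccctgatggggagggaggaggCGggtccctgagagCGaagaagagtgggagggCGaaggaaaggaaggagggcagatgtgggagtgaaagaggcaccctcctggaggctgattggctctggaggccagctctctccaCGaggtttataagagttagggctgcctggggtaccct
Tnf: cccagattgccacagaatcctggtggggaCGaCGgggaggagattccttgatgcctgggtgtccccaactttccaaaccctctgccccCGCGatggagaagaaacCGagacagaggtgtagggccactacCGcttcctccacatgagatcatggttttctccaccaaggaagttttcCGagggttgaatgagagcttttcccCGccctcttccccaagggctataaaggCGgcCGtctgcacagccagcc

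The windows held 15 CG dinucleotides for Tnfrsf12a, 18 for Ltbr, 31 for Tnfrsf11a, 4 for Tnfsf11 and 10 for Tnf. The GC box GGGCGG, searched on both strands with overlaps counted, occurred 5 times upstream of Tnfrsf12a, 2 times for Ltbr, 4 times for Tnfrsf11a, once for Tnf and not for Tnfsf11. The TATA box TATAAA, also searched on both strands, occurred at position -29 for Tnf and, on the opposite strand, at -32 for Tnfsf11, where -1 is the last base before the start. Tnfrsf12a, Ltbr and Tnfrsf11a had no such match. Among 17224 genes with a window, 43.1% held the GC box and 11.9% the TATA box.

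RefSeq gave a window for 36 of the 46 members. Cd40, Cd40lg, Cd70, Tnfrsf10b, Tnfrsf11b, Tnfrsf22, Tnfrsf26, Tnfsf12, Tnfsf4 and Tnfsf9 had none in the table. The 11 detected members with a window had a median of 12 CG dinucleotides (4 to 22), and the 24 below 1 CPM had a median of 6 (2 to 31). Over all genes the medians were 17 for 8757 detected and 3 for 8092 below 1 CPM. At least 10 CG dinucleotides stood before 7 of the 11 detected members and 6 of the 24 low ones (63.6% and 25%, beside 78.5% and 20.5% over all genes). The GC box was found in 9 of 11 and 9 of 24 (81.8% and 37.5%, beside 62.3% and 22.1%). Single members departed from this: Tnfrsf11a had the most CG dinucleotides of the 36 and lay under 1 CPM, while Eda2r and Tnfsf11 were detected with 4 each. The NF-kappaB motif was found in 2 members, Tnfrsf25 and Ltb, and in 1.40% of all genes. The AP-1 motif TGANTCA was found in 4, Fas, Tnfsf13, Tnfrsf8 and Tnfsf14, and in 6.49% of all genes. These are matches of letters and not sites.

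**Figure D2:**
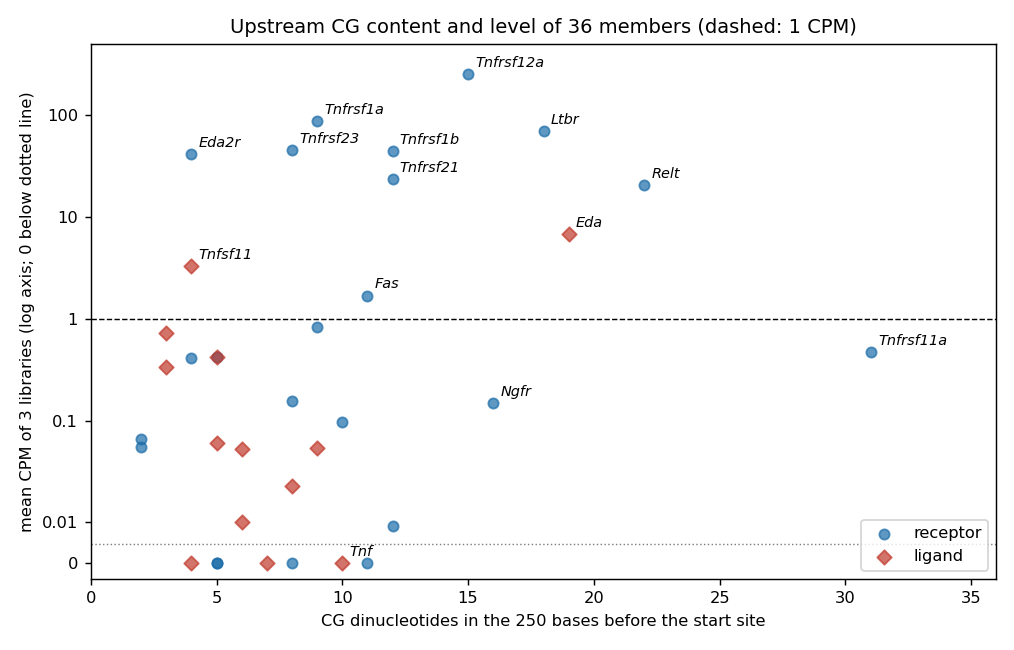
CG dinucleotides in the 250 bases before the start site (horizontal axis) against the mean CPM of 3 libraries (log axis, members at 0 below the dotted line) for the 36 members with a window, receptors as circles and ligands as diamonds; overlapping points are drawn darker. Most members above the dashed line at 1 CPM had 8 or more, with Eda2r and Tnfsf11 at 4, and Tnfrsf11a at 31 lay below it.

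Among the 7 death domain receptors, 4 were detected: Tnfrsf1a, Tnfrsf10b, Tnfrsf21 and Fas. Tnfrsf1a, the main receptor of soluble TNF, stood at 88.3, 84.8 and 89.3 CPM. Tnfrsf10b, the single mouse TRAIL receptor with a death domain, stood at 79.3, 80.1 and 79.4 CPM, the tightest values of any detected member. Fas, the receptor of Fas ligand, was low at 1.69, 1.79 and 1.59 CPM. No library stood apart in these 3 genes, and none varied by the test below (adjusted p = 0.115, 0.964 and 0.877). Per base, Tnfrsf1a exceeded Tnfrsf10b by 2.31-fold (2.23 to 2.37) and Fas by 40.8-fold (37.3 to 44.2). Fas lay at 0.0567 of Tnfrsf10b (0.0535 to 0.0597). Each of these exceeded the spread between replicates. Without length correction Tnfrsf1a and Tnfrsf10b were at a ratio of 1.10, and with the longest transcripts at 1.62; Fas then lay at 0.0214 of Tnfrsf10b without length.

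Tnfrsf21, known as DR6, a death receptor studied in neurons and oligodendrocytes, stood at 20.7, 19.5 and 31.0 CPM. It was highest in replicate 3. Tnfrsf25 (DR3) had 3, 4 and 8 counts and the neurotrophin receptor gene Ngfr 5, 1 and 9, while Edar had 0. Against these receptors, the death ligands were at or near 0. Tnf and Fasl had 0 counts in all libraries and Tnfsf10, encoding TRAIL, had 2, 3 and 0. With 3 counts as the floor for the whole group, Tnfrsf1a per base was at least 1804-fold higher than Tnf, and at least 1133-fold without replicate 1. Fas was at least 51.7-fold higher than Fasl, and at least 32.6-fold without replicate 1. For Tnfrsf1a over Tnf and Fas over Fasl, the exact 95% intervals over all libraries began lower, at 1467 and 41.5 (counting error only). Pooled over libraries, Tnfrsf10b exceeded Tnfsf10 by 1502-fold (exact 95% interval 643 to 4627, counting error only). With 5 counts of Tnfsf10 in all, this pooled value was 2633 without replicate 2 and 1001 without replicate 3.

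The TRAF-recruiting receptors Tnfrsf1b and Ltbr were abundant. Tnfrsf1b, the receptor that membrane TNF engages best, stood at 43.2, 47.0 and 43.4 CPM, and Tnfrsf1a exceeded it by 2.90-fold per base (2.66 to 3.04), larger than the spread between replicates. Ltbr, the lymphotoxin beta receptor, which drives the alternative NF-kappaB route, stood at 66.1, 68.5 and 75.9 CPM, highest in replicate 3. Per base Ltbr lay at 0.882 of Tnfrsf1a (0.824 to 0.936). Although Ltbr was the lower in all 3 libraries, this ratio was not larger than the spread (log2 -0.18 ± 0.09). It was larger with the longest transcripts (-0.29), without length correction (-0.32), without replicate 1 (-0.13) and without replicate 3 (-0.22). The ligands of Ltbr were nearly missing: Ltb had 1 count, in replicate 3, Lta had 1, 3 and 1, and Tnfsf14 (LIGHT) had 0. Pooled, Ltbr exceeded Ltb by 4408-fold, with an exact 95% interval of 791 to 174142 from that single count. It was 2874 without replicate 1 and 6845 without length correction, and without replicate 3 there was no count of Ltb to set it against. Ltbr exceeded Tnfrsf14 (HVEM), the other LIGHT receptor with 1, 4 and 0 counts, by 836-fold (358 to 2576). That value was 2969 without replicate 2 and 534 without replicate 3.

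Ordered per kilobase, the detected members ran from Tnfrsf12a (131) through Tnfrsf1a (33.8), Ltbr (29.8), Tnfrsf10b (14.6), Tnfrsf1b (11.7) and Tnfrsf23 (11.5) to Eda2r (7.01), Relt (6.31), Tnfrsf21 (5.77) and Tnfrsf22 (5.59). Tnfsf12 (4.53), Tnfrsf11b (3.57), Tnfsf11 (1.47), Eda (0.997), Fas (0.821) and Tnfrsf26 (0.799) followed. Reads of Tnfsf12 can be lost where it shares exon bases with Tnfsfm13, so its place may be higher. Of the 15 neighbouring pairs in this order, 8 had overlapping ranges over the libraries. The order from Eda2r through Relt, Tnfrsf21, Tnfrsf22 and Tnfsf12 to Tnfrsf11b is therefore not resolved between neighbours, nor is that of Tnfrsf1b and Tnfrsf23, of Tnfsf11 and Eda or of Fas and Tnfrsf26. The 5 steps larger than the spread were Tnfrsf12a to Tnfrsf1a, Ltbr to Tnfrsf10b, Tnfrsf10b to Tnfrsf1b, Tnfrsf11b to Tnfsf11 and Eda to Fas. This order rests on union exon lengths. Without length, in CPM, the step from Ltbr to Tnfrsf10b was reversed in every library (66.1, 68.5 and 75.9 against 79.3, 80.1 and 79.4). The other steps named kept their direction in CPM.

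The 3 decoy receptors, Tnfrsf22, Tnfrsf23 and Tnfrsf11b, were all detected. Tnfrsf22 and Tnfrsf23 are mouse TRAIL-binding receptors without a death domain, and Tnfrsf26 is a related gene beside them. Tnfrsf23 stood at 38.3, 39.1 and 59.5 CPM, Tnfrsf22 at 19.6, 19.1 and 32.02, and Tnfrsf26 at 2.61, 2.90 and 2.21. Replicate 3 was highest for the first pair, by 1.55-fold and 1.67-fold over the mean of the others, and lowest for Tnfrsf26, whose variation did not pass the test (adjusted p = 0.310). Tnfrsf26, Tnfrsf22 and Tnfrsf23 lie side by side on chromosome 7 at 143607659 to 143685872 (GRCm38). Tnfrsf23 exceeded Tnfrsf22 by 2.08-fold per base in a narrow range (1.98 to 2.18), larger than the spread. Reads of this pair are uncertain: of the 50-base windows in the transcripts of Tnfrsf22 and Tnfrsf23, 27.4% and 19.3% also occur in another gene, most of them in the other gene of the pair. Set against the signalling TRAIL receptor, Tnfrsf23 lay at 0.664, 0.672 and 1.03 of Tnfrsf10b. This did not exceed the spread (log2 -0.37 ± 0.36, exact two-sided permutation p = 0.5). Without replicate 3 (-0.58), with the longest transcripts (-0.91) and without length correction (-0.83) it did.

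Of the RANK axis, known from bone and from lymph node formation, the soluble decoy and the ligand were detected, the decoy at the higher level. The receptor lay below 1 CPM in all libraries. Tnfrsf11b, encoding osteoprotegerin, stood at 11.8, 12.3 and 6.07 CPM, and the ligand Tnfsf11 (RANKL) at 3.94, 3.83 and 2.08. The receptor Tnfrsf11a (RANK) had 26, 12 and 9 counts, or 0.722, 0.414 and 0.276 CPM. All 3 genes varied and were lowest in replicate 3, at 0.507, 0.540 and 0.489 of the mean of the others, as 31.5% of all genes tested did. For Tnfrsf11a the call by the chi-square test was lost without replicate 1 (adjusted p = 0.431). It was also lost with replicates 1 and 2 summed (adjusted p = 0.0592). Within libraries the decoy stayed at 2.40-fold the ligand per base (2.30 to 2.54) and at 45.1-fold the receptor (34.2 to 60.6), both larger than the spread, and at 21.2-fold the receptor without length correction. Tnfrsf11b, Tnfsf11 and Tnfrsf11a lie on chromosomes 15, 14 and 1. Sp7, an osteoblast lineage factor among the markers, was also lowest in replicate 3 (1.39, 1.10 and 0.276 CPM), and the late osteoblast gene Bglap had 0, 0 and 2 counts. All 4 fibroblast and pericyte markers tested (Col1a1, Col1a2, Pdgfrb and Dcn) varied and were lowest in replicate 3, as 31.5% of all genes tested did. With the common dispersion included, 1 of them varied, beside 1.99% of all genes. The list's summed level was 3671, 3569 and 1971 CPM, with Lum at or near 0. The part of these markers in the members lowest in replicate 3 was not tested.

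The ectodysplasin axis, which shapes hair, teeth and glands, was represented by the ligand and by 1 of its receptors. Eda stood at 6.55, 7.002 and 6.86 CPM. Eda2r (XEDAR), the receptor of the longer ligand form and a known p53 target, stood at 47.7, 47.4 and 28.9 CPM, lowest in replicate 3 at 0.611 of the mean of the others. Edar had 0 counts, so that Eda2r per base was at least 830-fold higher, with the same floor. That bound was 477 without replicate 1 and 547 without replicate 2, and 1345 without length correction. Gene counts do not separate the forms of Eda that Edar and Eda2r bind. Relt, a receptor with no settled ligand, stood at 15.9, 17.0 and 29.2 CPM, highest in replicate 3. Tnfrsf19 (TROY), a receptor of developing brain, was split at 0.694, 0.448 and 1.38 CPM, above 1 CPM in replicate 3 alone. Tnfrsf21 exceeded it by 34.7-fold per base (25.6 to 48.2), larger than the spread.

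None of the 7 lymphocyte costimulation receptors (Tnfrsf4, Tnfrsf8, Tnfrsf9, Tnfrsf14, Tnfrsf18, Cd27 and Cd40) and none of the 8 costimulation ligands was detected. Of the ligands, Tnfsf9 (4-1BB ligand) was split, at 1.55, 1.21 and 0.460 CPM, and was lowest in replicate 3. The noncoding gene Gm11110 on the opposite strand overlaps 14.9% of its exon bases. Tnfsf15 (TL1A) reached 0.722, 0.897 and 0.582 CPM and Tnfsf18 (GITR ligand) 0.278, 0.552 and 0.429; no library reached 1 CPM in either. The OX40 ligand Tnfsf4 had 1 count, Tnfsf8 had 2, and Tnfsf14, Cd70 and Cd40lg had 0. Pooled over libraries Tnfsf9 exceeded Tnfsf4 by 151-fold (exact 95% interval 26.6 to 6034). Of the receptors, Tnfrsf4 (OX40) reached 0.416, 0.414 and 0.429 CPM and Tnfrsf9 (4-1BB) 0.4997, 0.414 and 0.337, both from at most 18 counts a library. Cd40, by which T cells license antigen-presenting cells, had 2, 0 and 0 counts. Tnfrsf18 had 5, 0 and 2, Tnfrsf8 had 1 and Cd27 had 0.

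The B cell axis was also below detection. Tnfsf13 (APRIL) had 11, 7 and 15 counts and Tnfsf13b (BAFF) 2, 1 and 3. Their receptors Tnfrsf13b and Tnfrsf17 had 0 counts and Tnfrsf13c had 1, 5 and 3. Tnfsf12 exceeded its neighbour Tnfsf13 by 21.8-fold per base (14.0 to 28.6), larger than the spread. Tnfsf13 shares 60.0% of its exon bases with other genes, chiefly the same joint gene, so its level can be underestimated. Over exon bases of 1 gene only the ratio was 16.8.

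Members within 300 kb of each other formed 9 groups holding 23 members, of which 7 were detected. Over all members 16 of 46 (34.8%) were detected, and over all gene lines 46.6%. On chromosome 6, between 125232622 and 125362484, Ltbr and Tnfrsf1a were abundant while Cd27 in the same stretch had 0 counts. On chromosome 4, Tnfrsf1b was detected and its neighbour Tnfrsf8 had 1 count. The Ltb, Tnf and Lta group on chromosome 17 (35194439 to 35205351) held 6 counts in all, and the Tnfsf9, Cd70 and Tnfsf14 group on the same chromosome was represented by Tnfsf9 alone.

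**Figure D3:**
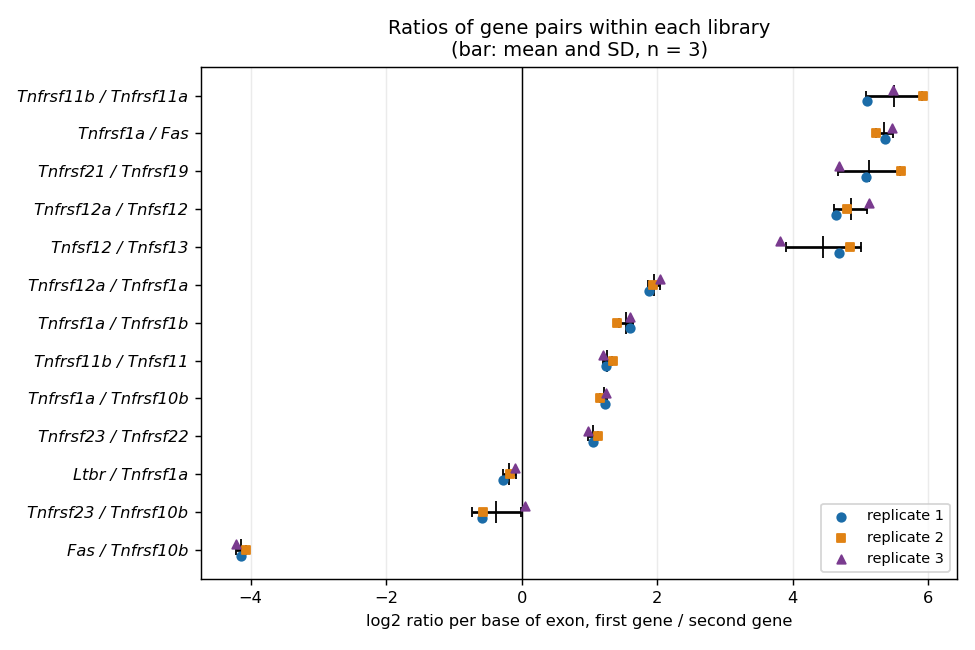
log2 ratio per base of exon for the 13 gene pairs with counts of both genes in every library, first gene over second, 1 point per library, with the mean and SD (n = 3). For 11 pairs all libraries lie on one side of 0 and the mean is over 2 SD from it; Ltbr over Tnfrsf1a lies just below 0 and Tnfrsf23 over Tnfrsf10b crosses it.

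Of 20 pairs compared, 13 had counts of both genes in every library, and 11 of these exceeded the spread between replicates. For Tnfrsf10b over Tnfsf10 and Ltbr over Tnfrsf14 the second gene had 0 counts in replicate 3, so a ratio there exists only through the 0.5 counts added. With these included, the exact two-sided sign-flip permutation p was 0.25 for 14 of 15 pairs (0.268 after Benjamini-Hochberg adjustment over the 15), and 0.25 is the smallest that 3 libraries allow, so no pair could reach 0.05.

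Variation between libraries was tested in genes at a mean of 10 or more counts, as a chi-square test of the 3 counts against library sizes scaled by TMM (trimmed mean of M values), with Benjamini-Hochberg adjustment over 12737 genes. This asks whether a gene varied more than counting noise and says nothing about a condition. Of 24 members tested, 12 varied at an adjusted p under 0.05, against 65.7% of all genes tested. Of the 12, 7 (58.3%) were highest in replicate 3 and 5 (41.7%) lowest in it, beside 50.4% and 47.9% of all varying genes. Over all genes tested, 33.1% varied and were highest in replicate 3 and 31.5% varied and were lowest in it. Without replicate 3, 0 of 23 members tested differed by the adjusted p of the same test, and 1 did at an unadjusted p under 0.05. Without replicate 1 and replicate 2 in turn, with sizes scaled anew, 11 and 13 of 24 members varied, beside 62.8% and 64.0% of all genes tested.

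Receptors made up 17 of the 24 members tested and 10 of the 12 that varied. The members highest in replicate 3 were all receptors: Tnfrsf23 (adjusted p = 6.31e-46, 1.55-fold over the mean of the others), Relt (3.64e-38, 1.79-fold), Tnfrsf22 (1.29e-32, 1.67-fold), Tnfrsf21 (3.93e-24, 1.55-fold), Tnfrsf12a (2.59e-21, 1.14-fold), Ltbr (2.96e-06, 1.14-fold) and Tnfrsf19 (0.000334, 2.43-fold). Those lowest in it were Eda2r (1.20e-38, 0.611 of the mean of the others), Tnfrsf11b (1.71e-16, 0.507), Tnfsf11 (5.71e-05, 0.540), Tnfsf9 (0.000145, 0.335) and Tnfrsf11a (0.0384, 0.489). The call for Tnfrsf11a was lost without replicate 1 (adjusted p = 0.431) and with replicates 1 and 2 summed (0.0592). The other 12 tested members, among them Tnfrsf1a, Tnfrsf10b, Tnfrsf1b, Fas, Eda and Tnfsf12, did not pass the test; Tnfsf12 did without replicate 2 (adjusted p = 0.0462). When the common dispersion of all genes, 0.0294, was added to the variance, 0 members varied at an adjusted p under 0.05, beside 1.99% of all genes. At an unadjusted p under 0.05, 5 of 24 members varied, beside 1089 of 12737 genes. This dispersion was estimated over the same 3 libraries as 1 group, so it already holds the difference of replicate 3. The 0 therefore cannot show that members vary no more than separate cultures would.

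**Figure D4:**
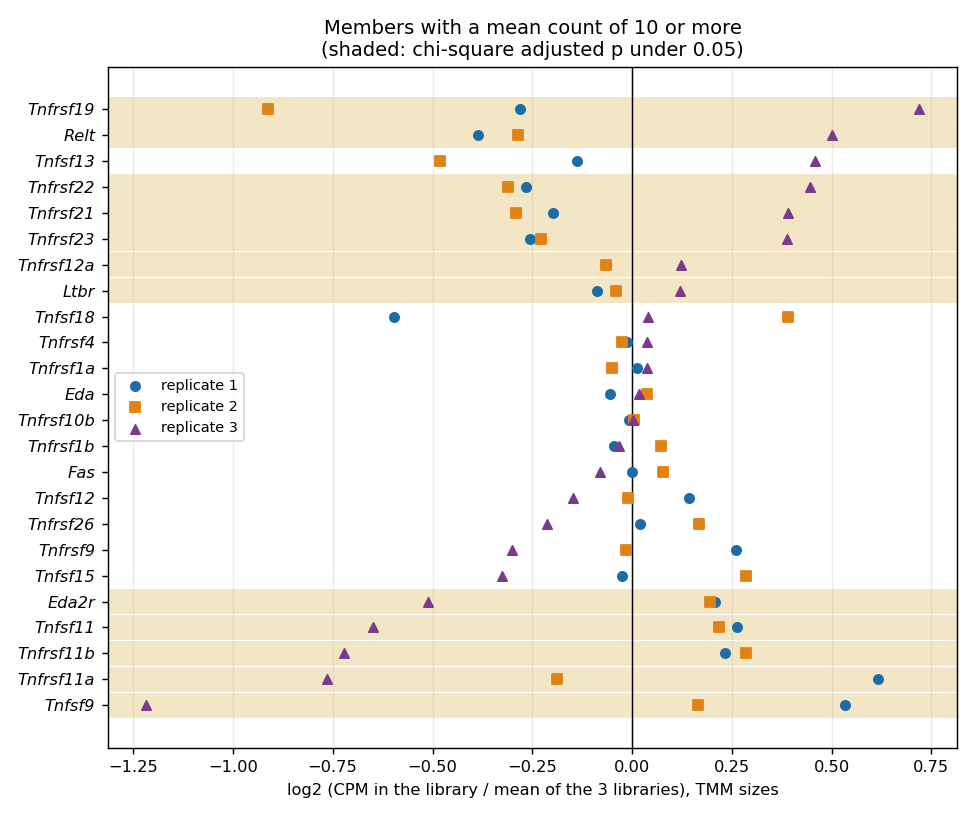
log2 of CPM in each library over the mean of the 3 libraries (TMM sizes) for the 24 members tested, sorted by replicate 3 over the others. Shaded members passed the chi-square test; in them replicate 3 is the highest library in 7 and the lowest in 5, and in Tnfrsf11a replicate 1 lies farther from the others than replicate 3 does.

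Of 25 receptor-proximal signalling genes, 23 were detected (92.0%, against 54.1% of protein-coding gene lines), and the exceptions were Edaradd, the adaptor of Edar, and Traf1, a lymphoid-associated adaptor, with 1, 5 and 6 and with 36, 12 and 9 counts. The highest were Cflar (207 ± 11.9 CPM), which encodes the caspase-8 inhibitor FLIP, the kinase adaptor Tab2 (172 ± 13.3), the deubiquitinase Cyld (116 ± 20.96) and the kinase Map3k7 (110 ± 1.41), known as TAK1. The death pathway genes Fadd (14.3 ± 3.18), Casp8 (48.8 ± 2.96), Ripk1 (43.2 ± 0.569), Ripk3 (17.6 ± 2.88) and Mlkl (52.5 ± 4.01) were all detected, as was Map3k14 (27.3 ± 3.38), the NIK kinase downstream of Ltbr and Fn14. Of 24 tested, 17 varied between libraries, against 65.7% of all genes tested. Of the 17, 10 (58.8%) were highest and 7 (41.2%) lowest in replicate 3, beside 50.4% and 47.9% of all varying genes. With the common dispersion included in the chi-square test, 0 varied by the adjusted p, beside 1.99% of all genes. By an unadjusted p under 0.05, 1 varied, beside 1089 of 12737 genes. The ligand-shedding proteases Adam10 (201 ± 21.8) and Adam17 (80.1 ± 4.29) were both detected. Both varied and were lowest in replicate 3, as 31.5% of all genes tested did.

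Of 18 genes that TNF is known to induce, 14 were detected (77.8%, against the same 54.1%) and Icam1, Il6, Cxcl2 and Csf2 lay below 1 CPM. Ptgs2, the inducible cyclooxygenase, was highest at 693, 699 and 1088 CPM, and Vcam1 (193 ± 15.03), Tnfaip2 (117 ± 19.6) and Mmp3 (105 ± 15.2) followed. The adhesion genes differed, with Vcam1 at 182, 186 and 210 CPM and Icam1 at 12, 12 and 3 counts. Of 14 tested, 11 varied, against 65.7% of all genes tested. With the common dispersion included 1 did, beside 1.99% of all genes. Of the 11, 8 were lowest in replicate 3 (47.9% of all varying genes were), with Lif at 0.332, Nfkbie at 0.330 and Cx3cl1 at 0.391 of the mean of the others, and 3 were highest there, namely Ptgs2, Nfkbia and Vcam1. As background, these genes also respond to other signals than TNF. Tnf itself had 0 counts, and which signals act on these genes here was not tested.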

How the data were processed

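RNA-seq of SB28, 3 libraries of 1 group, was used. Each library has a deposited table of whole-number read counts by gene symbol. Per the submitters' processing notes, the tools were Bowtie2 2.2.4 and HTSeq, for which no version is given, with the build mm10; options and strand setting are not given in the sources used here. Reads that mapped to several places or overlapped several genes were tallied apart from the genes, so overlapping and near-identical genes can be undercounted. With the strand setting unknown, a gene may not be told apart from an antisense partner. Reads not assigned to a gene made up 15.2%, 15.2% and 17.1% of all lines' totals and were left out of library sizes.

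CPM were computed over assigned counts. Symbols were matched to GENCODE M21 (GRCm38), with all 46 members found, and lengths are union exon lengths. Pair ratios were taken within each library as log2 of counts per base with 0.5 counts added, and called larger than the spread where the 3 libraries had the same sign and their mean was over 2 SD from 0. Pairs with 0 counts in the second gene in all libraries are bounds over 3 counts, and pairs whose second gene had 0 counts in some libraries are given pooled over libraries. The chi-square test used TMM sizes from edgeR 4.0.16; DESeq2 1.42.0 size factors were an alternative (R 4.3.3, Python 3.11.15, scipy 1.17.1). The exome data of the series were not analysed here. Overlap with other genes, shared windows and upstream sequence (RefSeq, GRCm38.p6) were computed from the annotation.

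Named genes are the members detected, split or with at least 10 counts, the genes of the fixed pairs, and of each partner list the 4 highest and the members below detection where fewer than 6; the other members are named by role. Fadd, Casp8, Ripk1, Ripk3, Mlkl, Map3k14, Lif, Nfkbie, Cx3cl1 and Nfkbia fall outside this rule and were chosen after their values were seen; cell type markers come from their own lists. Members and lists were chosen with earlier results of these data known. Trac, a T cell marker listed, had no line under that symbol.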

Additional observations from a re-analysis of the deposited data

How the results depend on the processing

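The numbers of members, receptors, ligands and signalling genes detected stayed within 1.5 times under thresholds of 0.5 and 5 CPM, TMM sizes, leaving out each replicate, and averaging replicates 1 and 2, an alternative chosen after seeing the data. At 5 CPM, 9 TNF-induced genes were detected against 14. Of 24 members tested, 12 varied with DESeq2 size factors and with library totals (65.9% and 65.8% of all genes tested). Without a count filter 12 of 37 did (50.2% of all genes), and with a mean count of at least 50, 9 of 16 (70.4%). With replicates 1 and 2 summed 11 of 24 varied (66.1%). With the common dispersion in the variance, estimated over these same libraries, 0 of 24 varied (1.99% of all genes). When 1 replicate was left out the number ranged from 0 to 13, the 0 being without replicate 3 (2.01% of all genes).

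The 11 pair ratios with counts in every library that were larger than the spread kept that call and their direction under every alternative run for them. Ltbr over Tnfrsf1a became larger than the spread with the longest transcripts (-0.29) and without length correction (-0.32), and ranged from -0.22 to -0.13 with 1 replicate left out. Tnfrsf23 over Tnfrsf10b did so likewise (-0.91 and -0.83), with a range from -0.58 to -0.27. Without length correction the bounds were 1345 for Eda2r over Edar, 2852 for Tnfrsf1a over Tnf and 55.0 for Fas over Fasl, and with the longest transcripts 2168 and 65.6 for the last 2. With 1 replicate left out they ranged from 477 to 636, from 1133 to 1286 and from 32.6 to 35.4, since fewer counts stand over the same floor. Pooled over libraries, a form chosen after seeing the data, Ltbr over Tnfrsf14 ranged from 534 to 2969 and Tnfrsf10b over Tnfsf10 from 1001 to 2633 with 1 replicate left out.

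No paired analysis was possible because the series has 1 group. Members under 10 counts cannot be ranked against each other.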
